A study of Mus musculus with 2744 samples.

Results

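Meis, Pbx and Pknox proteins are the partners with which Hox proteins bind DNA, and their genes are described here across the differentiation of mouse embryonic stem cells (mESCs) into motor neurons. The members were chosen by gene symbol in the count tables of both experiments: Meis1, Meis2, Meis3, Pbx2, Pbx3, Pbx4, Pknox1 and Pknox2, which are 8 of the 23968 genes of the tables. All 8 passed the filter on low counts, as did 16080 genes in all. The study sequenced the RNA of 2744 single cells by a modified CEL-seq protocol, in which barcoded primers mark each cell's messenger RNA before the cells of a plate are pooled. Cells were dissociated from embryoid bodies and sorted into wells on Day 2, Day 3, Day 4, Day 5 and Day 6 of a main and a pilot experiment. On Day 6 the main experiment also had 3 plates labelled eGFP++ and 1 plate labelled eGFP+, and the pilot experiment had 1 plate labelled eGFP++. All groups share the same protocol, cited by the labels as the method of Wichterle; the labels state no genotype, no added agent and no promoter for the eGFP reporter. The labels name no cultures within an experiment, so a group has at most 2 values that count as replicates.

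All 3 classes belong to the TALE homeodomain proteins, named for a loop of extra residues in the homeodomain. Pbx proteins contact a short motif of Hox proteins and sharpen their choice of DNA sites, and Meis and Pknox proteins bind Pbx proteins through a separate domain and help to hold them in the nucleus. In the developing hindbrain and spinal cord, retinoic acid induces the Hox genes that assign position along the body axis, and Meis genes are known as retinoic acid-responsive genes.

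The stretch of the homeobox that encodes the DNA recognition helix is shown for the 8 members, since it is the part in which the classes differ in how they read DNA. It was read 5′ to 3′ on the coding strand from mm10 with GENCODE M21 gene models, spliced where an intron interrupts it, and each stretch is 48 bases of coding exon. Capitals mark 1 codon of that helix, which encodes isoleucine in the Meis and Pknox genes and glycine in the Pbx genes.
Meis1: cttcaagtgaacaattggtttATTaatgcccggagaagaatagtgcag
Meis2: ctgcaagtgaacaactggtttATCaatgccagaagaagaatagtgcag
Meis3: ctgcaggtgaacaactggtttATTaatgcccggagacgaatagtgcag
Pknox1: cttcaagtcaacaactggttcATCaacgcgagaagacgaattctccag
Pknox2: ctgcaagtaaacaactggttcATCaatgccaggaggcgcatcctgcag
Pbx2: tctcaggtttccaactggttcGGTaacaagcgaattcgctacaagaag
Pbx3: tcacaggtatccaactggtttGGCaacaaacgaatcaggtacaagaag
Pbx4: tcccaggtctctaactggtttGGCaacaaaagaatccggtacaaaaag

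On the minus strand lie the stretches of Meis1 (chr11:18885621-18905705), Meis2 (chr2:115868773-115921688), Pbx3 (chr2:34178301-34204785) and Pknox2 (chr9:36894468-36895327). On the plus strand lie those of Meis3 (chr7:16183851-16184068), Pbx2 (chr17:34594712-34594842), Pbx4 (chr8:69866598-69870070) and Pknox1 (chr17:31602846-31603217). All 8 spans include an intron that the 48 bases leave out. Over the 63 codons of the whole homeobox, the 3 Meis genes shared 82% to 84.7% of bases with each other, the 3 Pbx genes 79.4% to 82.5%, and Pknox1 and Pknox2 78.3%. A Meis and a Pknox gene shared 65.1% to 71.4% of bases, and a Pbx gene shared 44.4% to 53.4% with any Meis or Pknox gene. The longest run of identical bases between any 2 members in the homeobox was 21 bases, between Meis1 and Meis2 and between Meis1 and Meis3. The rest of the transcripts was not compared.

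Facts of the whole series that touch these genes are as follows. Of the 2744 cells, 2448 had at least 500 detected genes and were kept. Summed gene reads ranged from 16370502 to 100972780 per group and experiment. The median number of genes per cell in the main experiment was 4439 on Day 2 and 2310.5 on Day 6, and spike-in reads made up 2.98% and 15.6% of spike-in and gene reads, so that cells of different days are not equally deep in detected genes. A detected gene had a median of 13 reads per main cell and 73 per pilot cell, and the reads carry no molecular identifiers. Levels are therefore given in 2 ways. The first is CPM, the gene's reads summed over the cells of a group and experiment and scaled to the total of gene reads of that sum. The second is the share of cells with at least 1 read after every cell was thinned to 10000 reads. It counts a cell once, but whether a read is left after thinning still depends on the gene's amplified reads in that cell. Intervals are 95% Wilson intervals and cover counting error only. Beside a share of 0, the share said to be allowed is 3 cells over the number of cells, a bound other than the Wilson interval drawn in the plot of shares. A sum cannot tell fewer cells of a type from less RNA per cell. CPM and shares at equal reads are both relative to gene reads, and levels per spike-in read were not computed. Pluripotency markers fell with each day, while neuronal and motor neuron markers did not rise at every step. The 5 neuronal markers summed to 217.3 CPM (main) and 158.8 CPM (pilot) on Day 2. They were at 59 and 24.9 CPM on Day 4 and at 826.9 and 291.8 CPM on Day 5. The 5 pluripotency markers summed to 4325 CPM (main) and 2921 CPM (pilot) on Day 2 and to 11.9 and 28.7 CPM by Day 6, and the 6 motor neuron markers to 3.44 and 17.4 CPM on Day 2 and to 1086 and 1349 CPM in the eGFP++ cells. The Egfp transcript was at 9759 and 4413 CPM in the eGFP++ cells and at 3804 and 2709 CPM in the other Day 6 cells, but at 1488 CPM in the eGFP+ plate, below the main experiment's other Day 6 cells, so the eGFP+ cells are called the plate labelled eGFP+.

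Meis1, Meis2 and Meis3 were at or near 0 on Day 2 and high on Day 6 in both experiments. In the pilot experiment they rose at different times in between. Meis1 (ENSMUSG00000020160, chr11:18879817-19018985, minus strand) had 5 reads on Day 2 of the main experiment. Its main levels over Days 2 to 6, in order, were 0.0673, 37.4, 66.1, 67.5 and 109.9 CPM. Its pilot levels, in the same order, were 0.0381, 0.0278, 47.2, 84 and 98.1 CPM. Meis1 was thus high by Day 3 of the main experiment, whereas the pilot had only 2 reads at Day 3 and high levels from Day 4. The 5 main plates of Day 3 lay between 26.8 and 56.7 CPM. The main share of cells with a Meis1 read was 0.282% at Day 2 (interval 0.0497 to 1.58), 15.2% at Day 3 (12.1 to 18.9), 22.6% at Day 4 (17.6 to 28.4), 30.7% at Day 5 (25.9 to 35.9) and 26.8% at Day 6 (22.5 to 31.7). Among pilot cells 0 of 69 had a read at Day 3, which allows a share of up to 4.35%, and the later shares were 8.77% (3.81 to 18.9), 25.3% (16.9 to 36.2) and 35.2% (25.1 to 46.8). The Day 3 intervals of the 2 experiments did not overlap.

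Meis2 (ENSMUSG00000027210, chr2:115863064-116065839, minus strand) was high from Day 3 in both experiments. Its main level was 0.484 CPM at Day 2 and 90.4 CPM at Day 3, was 1.21-fold that at Day 4, and then 121.5 and 176.7 CPM at Days 5 and 6. Its pilot levels were 0.0381 CPM at Day 2, from 2 reads of 1 cell, and 34, 80, 34.9 and 107.1 CPM at Days 3 to 6. Both Day 3 sums stood far above both Day 2 sums, and each pilot sum from Day 3 lay below the main sum of its day. Pilot values rested on few cells: 1 cell held 38.2% of the Meis2 reads of Day 4 and 39.2% of those of Day 5, against 5.71% and 5.23% among main cells. The main share of cells with a Meis2 read was 0.563% (0.155 to 2.03) at Day 2, 29.9% (25.7 to 34.4) at Day 3, then 35.8%, 41.7% and 36.2% (31.3 to 41.3). Pilot shares were 0% at Day 2 (0 of 74 cells, which allows up to 4.05%), 10.1% (5 to 19.5) at Day 3, then 15.8%, 14.7% and 29.6% (20.2 to 41).

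Meis3 (ENSMUSG00000041420, chr7:16175090-16186504, plus strand) was the lowest of the 3 in CPM on Days 3 to 6 and, in the pilot experiment, the latest. Its main Day 3 sum was already 22.7-fold above Day 2. Over all reads its main share of cells was 2.49% on Day 2, 14.2% on Day 3, 10.6% on Day 4 and 44.3% on Day 5. Main levels over Days 2 to 6 were 0.215, 4.88, 10.3, 29.3 and 45.6 CPM. Pilot levels were 0.932 CPM at Day 2, from 49 reads of 1 cell, then 0, 0, 23.7 and 30.3 CPM. After thinning, its main share of cells stayed at 3.54% (1.8 to 6.83) or less up to Day 4. It was 15.6% (12.1 to 20) and 18.6% (14.9 to 23) on Days 5 and 6. No pilot cell had a read at this depth from Day 2 to Day 4, where the sums of 57 to 74 cells allow shares of up to 4.05% to 5.26%, and 12% (6.44 to 21.3) and 14.1% (7.83 to 24) had a read on Days 5 and 6.

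Pbx2 and Pbx3 followed different courses. Pbx2 (ENSMUSG00000034673, chr17:34591266-34597400, plus strand) was present on Day 2 at 35.9 CPM (main) and 26.2 CPM (pilot). The Day 3 sums were 3.65-fold (main) and 7.17-fold (pilot) above Day 2. The main levels of Days 4 to 6 were 126.8, 142.1 and 120.3 CPM, and the pilot levels 72.5, 165.1 and 131.6 CPM. No later day stood above Day 3 in both experiments. Cells with a Pbx2 read made up 16.3% (12.9 to 20.5), 47.4% (42.7 to 52.2), 38.5%, 44.2% and 31.9% (27.3 to 36.9) of main cells over Days 2 to 6. Pilot shares were 10.8%, 27.5%, 12.3%, 44% and 35.2% over the same days, and 1 cell held 49.5% of the pilot's Pbx2 reads of Day 4. Pbx2 overlaps Gpsm3 on the same strand, and Gpsm3 was at 8.91 CPM or less in every sum.

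Pbx3 (ENSMUSG00000038718, chr2:34171457-34373142, minus strand) was low to Day 4 and highest on Day 6 by CPM. Over Days 2 to 6 it was at 9.74, 13.3, 17.2, 43.7 and 123.4 CPM in main sums and at 13.5, 33.2, 4.26, 17 and 96.7 CPM in pilot sums. The pilot value of Day 3 came from 3 cells, and 99.6% of the reads of Day 4 came from 1 cell, while both Day 6 sums stood above every sum of Days 2 to 5. Day 6 was 12.7-fold (main) and 7.17-fold (pilot) above Day 2. Cells with a Pbx3 read made up 5.07% (3.23 to 7.87), 5.45%, 6.19%, 16.9% (13.2 to 21.3) and 23.7% (19.6 to 28.4) of main cells over the same days. Pilot shares were 2.7%, 4.35%, 0%, 9.33% and 23.9% (15.5 to 35), where the 0 of 57 cells at Day 4 allows a share of up to 5.26%.

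Pbx4, Pknox1 and Pknox2 were found in few cells throughout. Pbx4 (ENSMUSG00000031860, chr8:69832491-69872292, plus strand), a gene known for its expression in testis, lay between 7.04 and 20.4 CPM in main sums and between 0 and 7.22 CPM in pilot sums of Days 2 to 6. Its highest value was on Day 6 in both experiments, and its share of cells was at most 7.63% (5.29 to 10.9), on main Day 6. Pknox1 (ENSMUSG00000006705, chr17:31564734-31607693, plus strand), also known as Prep1, lay between 8.62 and 15.8 CPM in main sums and between 11 and 25.5 CPM in pilot sums of Days 2 to 6, with its lowest value on Day 3 in both. Its Day 6 levels, 13.2 and 25.5 CPM, and its Day 2 levels, 12.2 and 17.2 CPM, overlapped. Pknox2 (ENSMUSG00000035934, chr9:36890982-37147407, minus strand), also known as Prep2, was at 3.42, 8.59, 12.3, 14.7 and 14.8 CPM in main sums of Days 2 to 6. Its pilot levels were 0, 2.38, 22.8, 8.88 and 12.5 CPM, of which the Day 4 value took 71.1% of its reads from 1 cell. Overlapping genes in GENCODE number 5 for Meis1 (2 of them on the other strand), 1 for Pbx3 (1), 3 for Pknox1 (2) and 4 for Pknox2 (3). The rest lie on the same strand as the member. The use of strand in counting is among what the sources used here leave unsaid, and reads of such a partner cannot be told apart from these members' reads.

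**Figure D1:**
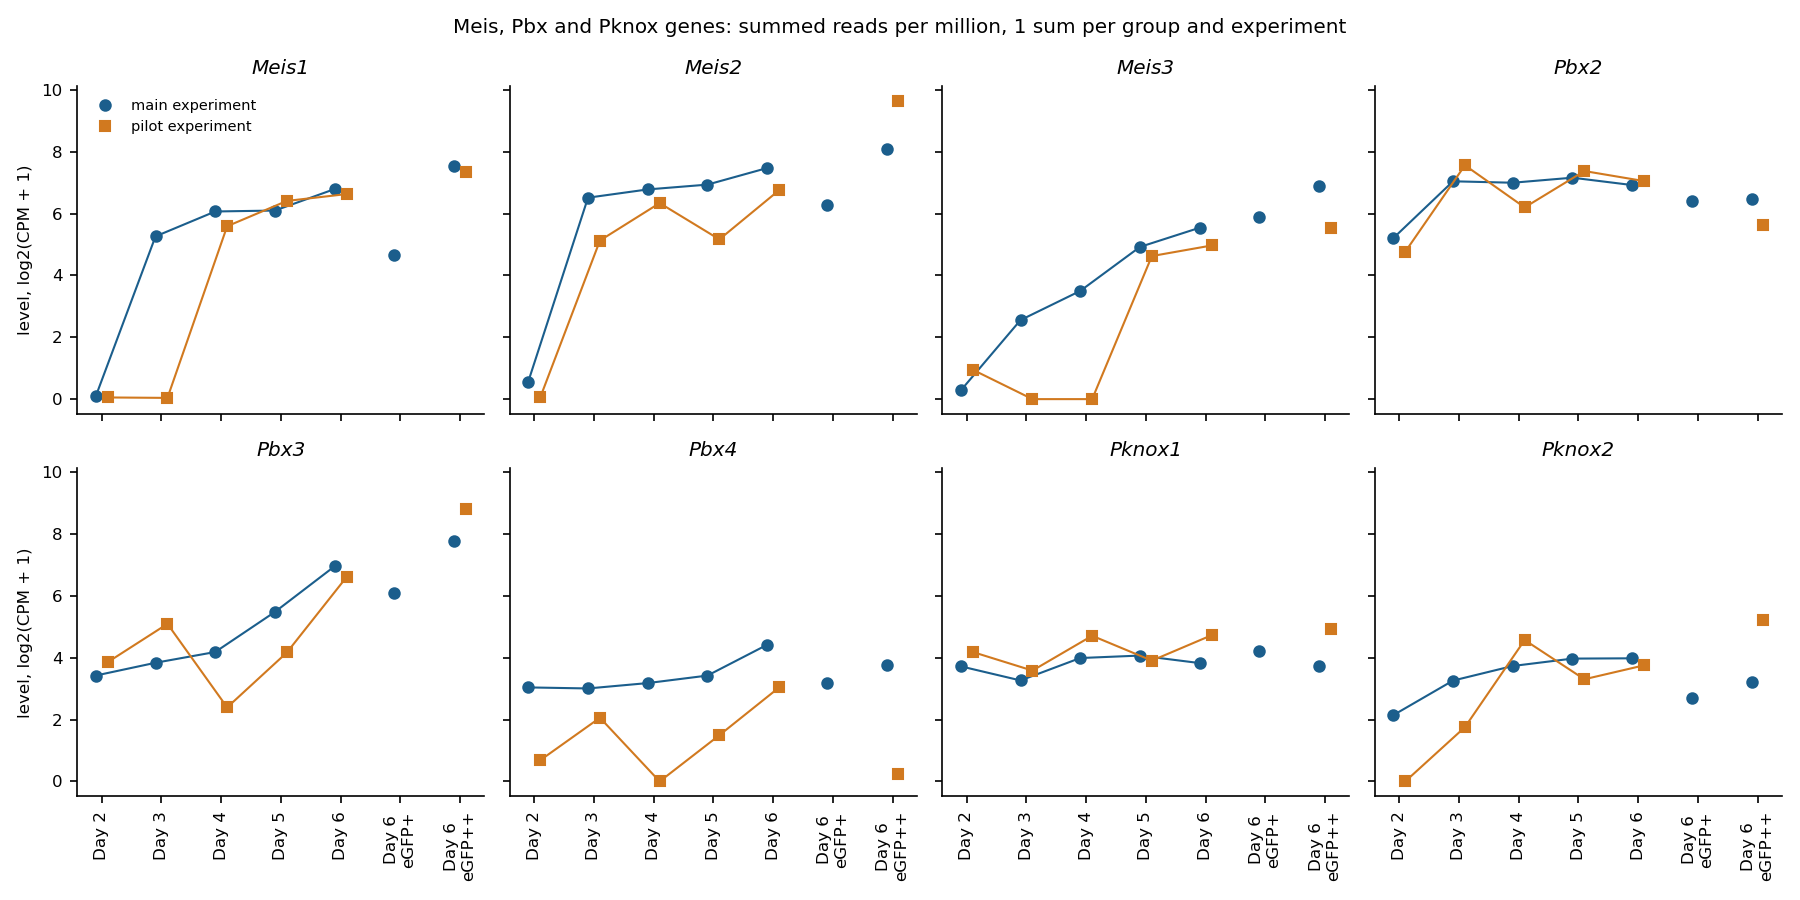
Level of each member as log2(CPM + 1) (y axis) in each group (x axis), 1 point per sum of a group and experiment; circles are the main and squares the pilot experiment, and lines join Days 2 to 6. Meis2 stands far above its Day 2 level from Day 3 in both experiments, Meis1 from Day 3 (main) or Day 4 (pilot), and Pbx3 is highest in the eGFP++ cells at 219.3 and 443.4 CPM.

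**Figure D2:**
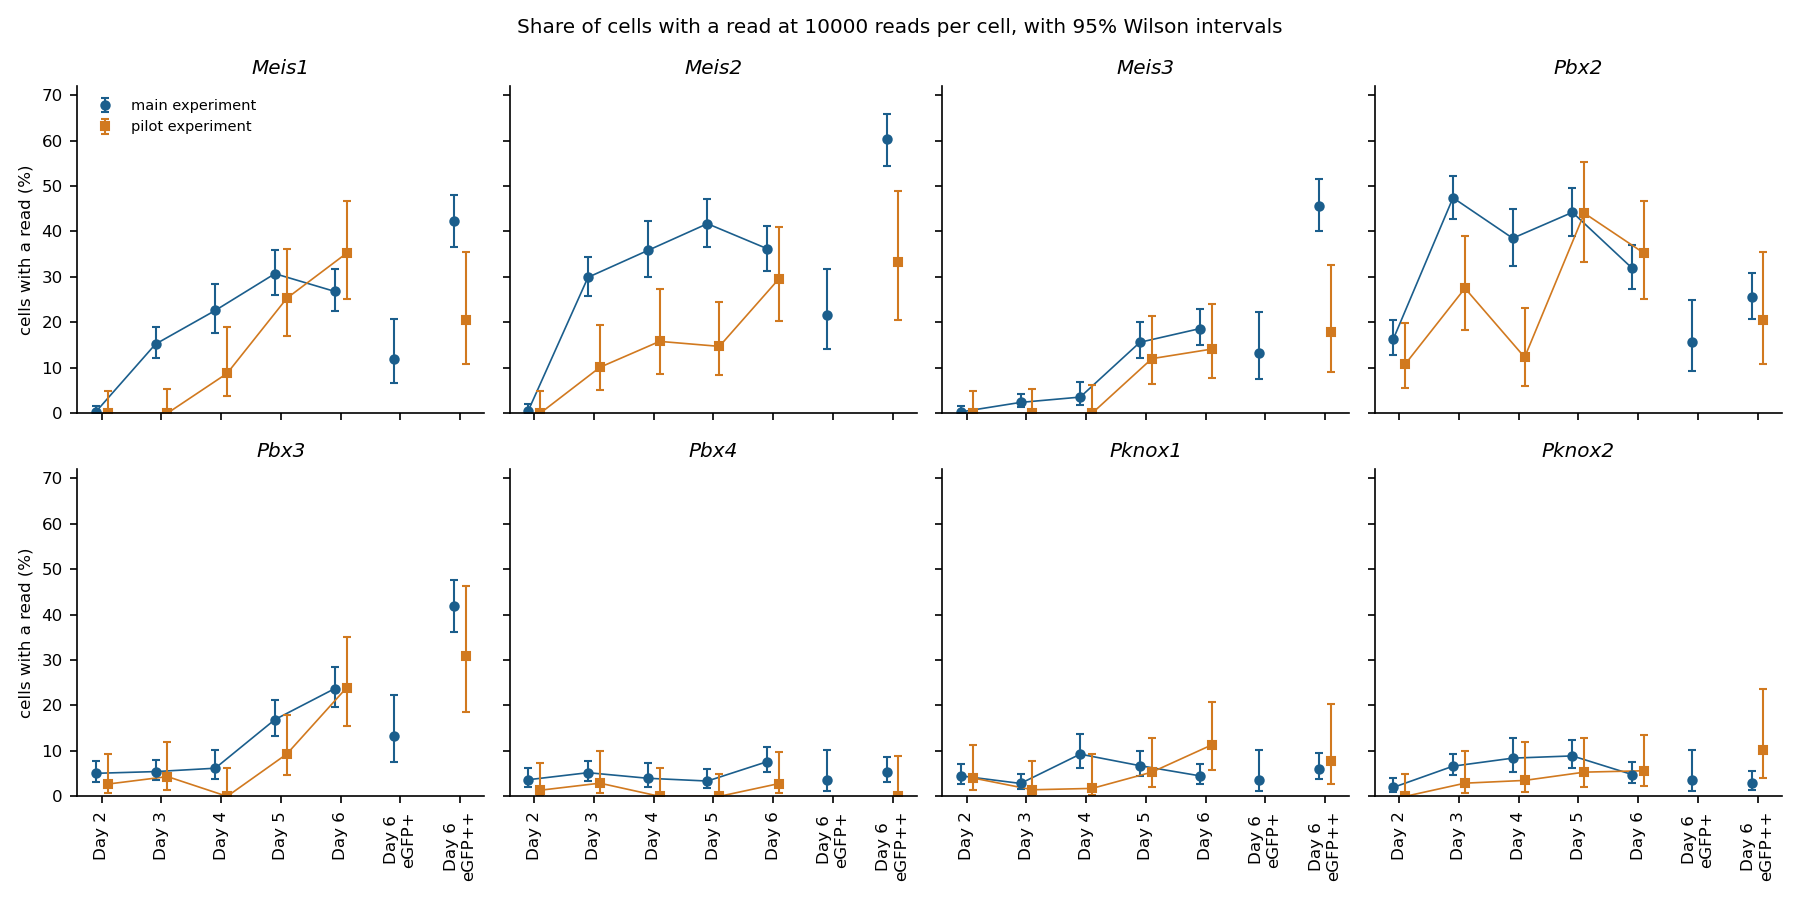
Percentage of cells with at least 1 read of each member after thinning to 10000 reads per cell (y axis) in each group (x axis); points are shares, bars are 95% Wilson intervals, circles are the main and squares the pilot experiment. Meis1, Meis2, Meis3, Pbx2 and Pbx3 have higher shares on Day 6 than on Day 2 in both experiments. Pbx4, Pknox1 and Pknox2 have at most 11.3% of cells on any of Days 2 to 6. Their shares are also higher on Day 6 than on Day 2, except that Pknox1 is level in the main experiment at 4.51% and 4.52%.

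Thinning lowers these shares. Counted over all reads, the main Day 2 and Day 6 shares were 0.831% and 42.9% for Meis1, 1.94% and 50.3% for Meis2, 2.49% and 37% for Meis3, 48.2% and 48.6% for Pbx2, and 13.9% and 29.4% for Pbx3. For Pbx2 the 2 days of the main experiment were level in that count, whereas at equal reads they were 16.3% and 31.9%; main Day 2 cells had a median of 179910 and Day 6 cells of 143612 gene reads. In the pilot experiment Day 6 was above Day 2 in both counts, at 57.7% against 14.7% over all reads and 35.2% against 10.8% at equal reads. The step from Day 5 to Day 6 also changed with thinning for Pbx3 and Meis3. Over all reads their main shares went from 37.3% to 29.4% and from 44.3% to 37%. At equal reads they went from 16.9% to 23.7% and from 15.6% to 18.6%. Pilot shares of both genes rose at this step in either count.

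Consecutive days and the ends of the course were compared with edgeR's quasi-likelihood test across all 16080 genes, with Benjamini-Hochberg adjustment and 2 sums a group. From Day 2 to Day 3, 1 of the 8 members passed, against 0.0498% of all genes (8 genes). Meis2 rose by 7.98 ± 1.07 on the log2 scale (SE, edgeR adjusted p = 0.026). That call was lost when any 1 of 3 sums was left out: the change was 7.20 with an edgeR adjusted p of 0.338 without the pilot Day 2 sum, 7.64 with 0.0697 without the main Day 3 sum, and 8.18 with 0.0577 without the pilot Day 3 sum. Over all 12 alternatives the Meis2 change ranged from 4.78 to 10.08, and its adjusted p from 1.41e-13 to 0.338. Meis1, with a fitted change of 8.02 ± 2.09 (SE, edgeR adjusted p = 0.876), did not pass, and its experiments differed on Day 3. Without the main Day 3 sum its fitted change was −0.81, and without the pilot Day 3 sum it was 9.27 with an edgeR adjusted p of 0.00229, out of a range of 6.97e-11 to 1 over its alternatives. Pbx2 had a fitted change of 2.35 ± 0.51 (SE, edgeR adjusted p = 0.434) and did not pass. DESeq2, run as an alternative on the same sums, called 3 members in this comparison, Meis1, Meis2 and Pbx2, against 1.07% of all genes.

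From Day 3 to Day 4, from Day 4 to Day 5 and from Day 5 to Day 6, 0 of the 8 members passed, and 0% of all genes did. At an unadjusted p under 0.05 edgeR gave 2.69%, 3.7% and 3.17% of genes in these 3 comparisons, and DESeq2 at its adjusted threshold called 1.01%, 1.16% and 0.802% of genes and 0 members. Pbx3 alone of the members had an unadjusted p under 0.05 in any of them, from Day 5 to Day 6, with a fitted change of 1.92 ± 0.80 (SE, edgeR adjusted p = 1). Its own ratio of Day 6 to Day 5 was 2.82-fold (main) and 5.7-fold (pilot).

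Between Day 2 and Day 6, 1 of the 8 members passed, against 0.833% of all genes (94 rose and 40 fell). Meis2 rose by 9.24 ± 1.13 (SE, edgeR adjusted p = 0.00563). The call was kept under 11 of 12 alternatives and lost without the pilot Day 2 sum, where the change was 8.42 and the edgeR adjusted p 0.0597, the highest of a range that began at 5.14e-18. Meis1 missed the threshold with a fitted change of 10.94 ± 2.26 (SE, edgeR adjusted p = 0.0552), and passed without the experiment as a block (10.78, edgeR adjusted p = 0.0413), with a range of 3.83e-17 to 0.448 over its alternatives. Pbx2 at 1.97 ± 0.51 and Pbx3 at 3.13 ± 0.84 did not pass, with edgeR adjusted p of 0.124 and 0.136. Every one of the 8 members had a higher CPM on Day 6 than on Day 2 in each experiment, as did 8364 of 15767 measured genes in main and 7884 of 13651 in pilot sums. Spike-in reads rose between these days from 2.98% to 15.6% (main) and from 4.75% to 15.4% (pilot) of spike-in and gene reads. CPM does not take this in, and the part of it in these rises was not tested. The members' median log2 ratio was 2.89 (main) and 4.29 (pilot), beside 0.11 and 0.43 over all genes tested. DESeq2 called Meis1, Meis2, Pbx2 and Pbx3, against 12.7% of all genes. Counting cells with a read in place of reads, 7 of the 8 members passed and Pknox1 did not, but that setting called 30.8% of 11509 genes, and it counts cells that were not thinned.

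The trend of the share of cells gave a second view, in which a cell counts at most once. Amplification still enters it, since a gene with few reads in a cell can lose them in thinning. For instance, Meis3 on main Day 3 was read in 14.2% of cells over all reads and in 2.37% after thinning. The mean slope over Days 2 to 6 of both experiments was tested for every gene by an exact permutation test that reordered the 5 days separately in either experiment (14400 arrangements, two-sided), adjusted over all 16080 genes. By this test 2 of the 8 members rose, against 1.68% of all genes (of the called genes 64.8% rose). Meis1 rose by 8.22 percentage points per day, 6.86 (main) and 9.58 (pilot) by experiment (exact permutation, adjusted p = 0.0496). Meis3 rose by 4.51 points per day, 5.00 and 4.02 by experiment (exact permutation, adjusted p = 0.0496). Both lie close to the threshold: with cells thinned to 5000 reads Meis1 was called and Meis3 was not, with at least 1000 genes per cell likewise, and at 2000 reads, without thinning or within either experiment alone 0 genes of the table were called. Over the 6 alternatives the adjusted p ranged from 0.0486 to 0.534 for Meis1 and from 0.0573 to 0.534 for Meis3. Slopes of the others, none of which passed by this test, were 7.34 points per day for Meis2 (adjusted p = 0.0585), 4.81 for Pbx3 (0.0785), 4.66 for Pbx2 (0.399), 1.11 for Pknox1 (0.428), 1.08 for Pknox2 (0.268) and 0.31 for Pbx4 (0.7), each by exact permutation.

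Taking the classes together, the share of cells with a read of Meis1, Meis2 or Meis3 was 1.13% (0.439 to 2.86), 40%, 51.8%, 65% and 55.6% (50.4 to 60.7) over Days 2 to 6 of the main experiment. Pilot shares were 0% (0 of 74 cells, which allows up to 4.05%), 10.1%, 22.8%, 40% and 62% (50.3 to 72.4). Cells with a read of Pbx2, Pbx3 or Pbx4 were already 22.3% (main) and 13.5% (pilot) on Day 2 and 50.6% and 49.3% on Day 6. Cells with both a Meis and a Pbx read were 0.282% and 0% on Day 2 and 32.2% (27.5 to 37.2) and 35.2% (25.1 to 46.8) on Day 6. For comparison, a read of a Hox gene of groups 1 to 8 was found in 8.73% and 4.05% of Day 2 cells, in 87.2% and 52.2% of Day 3 cells and in 98.6% of Day 6 cells of both experiments. On Day 3 of the main experiment, 43.5% (38.5 to 48.6) of the cells with a Hox read had a Meis read, against 16.7% (9.02 to 28.7) of the 54 cells without. Those 2 sets of cells also differed in complexity, with a median of 2055.5 and 860 genes per cell at 10000 reads, and the part of that difference in the result was not tested. On Day 3 of the pilot experiment the shares were close, at 11.1% (4.41 to 25.3) of 36 cells with a Hox read and 9.09% (3.14 to 23.6) of 33 cells without, with medians of 1204 and 947 genes.

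**Figure D3:**
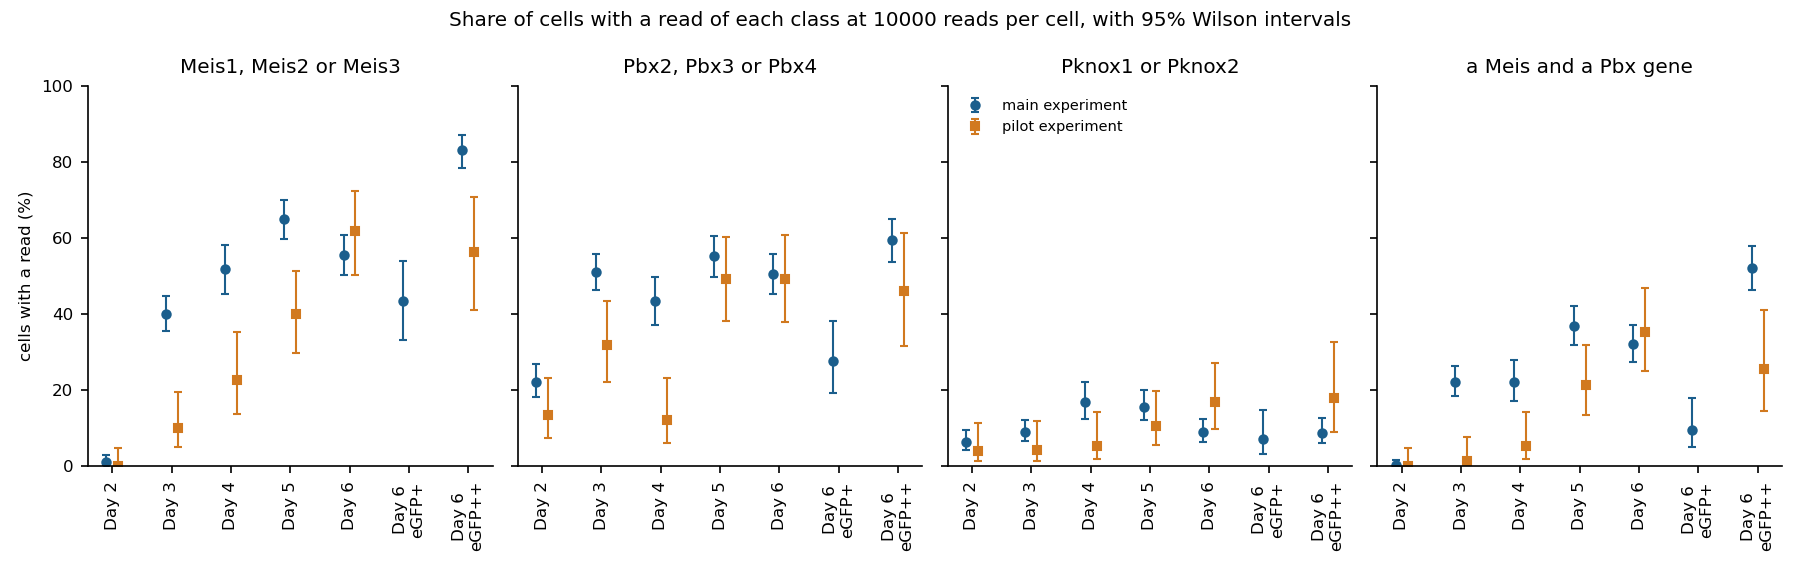
Percentage of cells (y axis) with a read of any Meis member, of any Pbx member, of any Pknox member, and of both a Meis and a Pbx member, by group (x axis), at 10000 reads per cell; bars are 95% Wilson intervals, circles are the main and squares the pilot experiment. The Meis share starts at 1.13% and 0% on Day 2, whereas the Pbx share starts at 22.3% and 13.5%.

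Within Days 5 and 6, Pbx3 was found more often in cells with a read of Stmn2, a gene of growing neurites used here as a neuronal marker, than in cells without. On Day 6 of the main experiment 43.6% (36.2 to 51.2) of cells with Stmn2 had a Pbx3 read and 6.81% (4.02 to 11.3) of cells without. The pilot shares were 44% (26.7 to 62.9) of 25 cells and 13% (6.12 to 25.7) of 46 cells. On Day 5 the main shares were 30.3% (20.6 to 42.2) and 13.5% (9.84 to 18.1), and the pilot shares 28.6% of 7 cells and 7.35% of 68 cells. The same order held in the eGFP++ cells, with 45.7% and 17.9% (main) and 37% and 16.7% (pilot), so that the share was higher with Stmn2 in 6 of 6 sums. Cells are not replicates and no test was made of these shares. Cells with Stmn2 also had more genes at the same number of reads on Day 6. The medians were 1600 against 1374 (main) and 1805 against 1660.5 (pilot). Among eGFP++ cells they were 1660 against 1275 (main) and 996 against 860.5 (pilot). On Day 5 they were 2030.5 against 1985.5 (main) and 1720 against 1796.5 (pilot). The part of these differences in the result was not tested. Stmn2 itself was read in 45.1% of main and 12.2% of pilot cells on Day 2, so it marks neurons only beside the later days' other markers.

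Meis1 had a higher share with Stmn2 in 5 of 6 sums, for instance 38% against 17.3% on Day 6 of the main experiment, and a lower one in the pilot eGFP++ cells, 14.8% against 33.3%. Meis2 was higher in 5 of 6 sums and level in the pilot eGFP++ cells, with 65.2% against 35.8% on main Day 5 and 52.8% against 22% on main Day 6. Meis3 was higher in 5 of 6 sums, with 22.7% against 15.2% on main Day 6. Pbx2 was higher in 3 of 6 sums and lower in the other 3, and of the members found in few cells Pbx4 was higher in 2 of 6, Pknox1 in 5 of 6 and Pknox2 in 3 of 6. Split instead by a read of Top2a, a topoisomerase of dividing cells, Pbx2 had the higher share among cells with the read in 5 of 6 sums, with 47.9% against 36.9% on main Day 5 and 53.1% against 26.9% on pilot Day 5. Cells with Top2a also had more genes at the same number of reads on these days, a median of 2052 against 1904 (main) and of 1969 against 1499 (pilot), and the part of that in the result was not tested. On main Day 6 the Pbx2 shares were close, at 34.5% with and 31.1% without Top2a, and the eGFP++ sums held only 23 (main) and 3 (pilot) cells with Top2a. Pknox2, found in few cells, was also higher with Top2a in 5 of 6 sums. Meis1 and Pknox1 were higher in 2 of 6 and Meis3, Pbx3 and Pbx4 in 3 of 6, and Meis2 was lower with Top2a in 5 of 6.

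**Figure D4:**
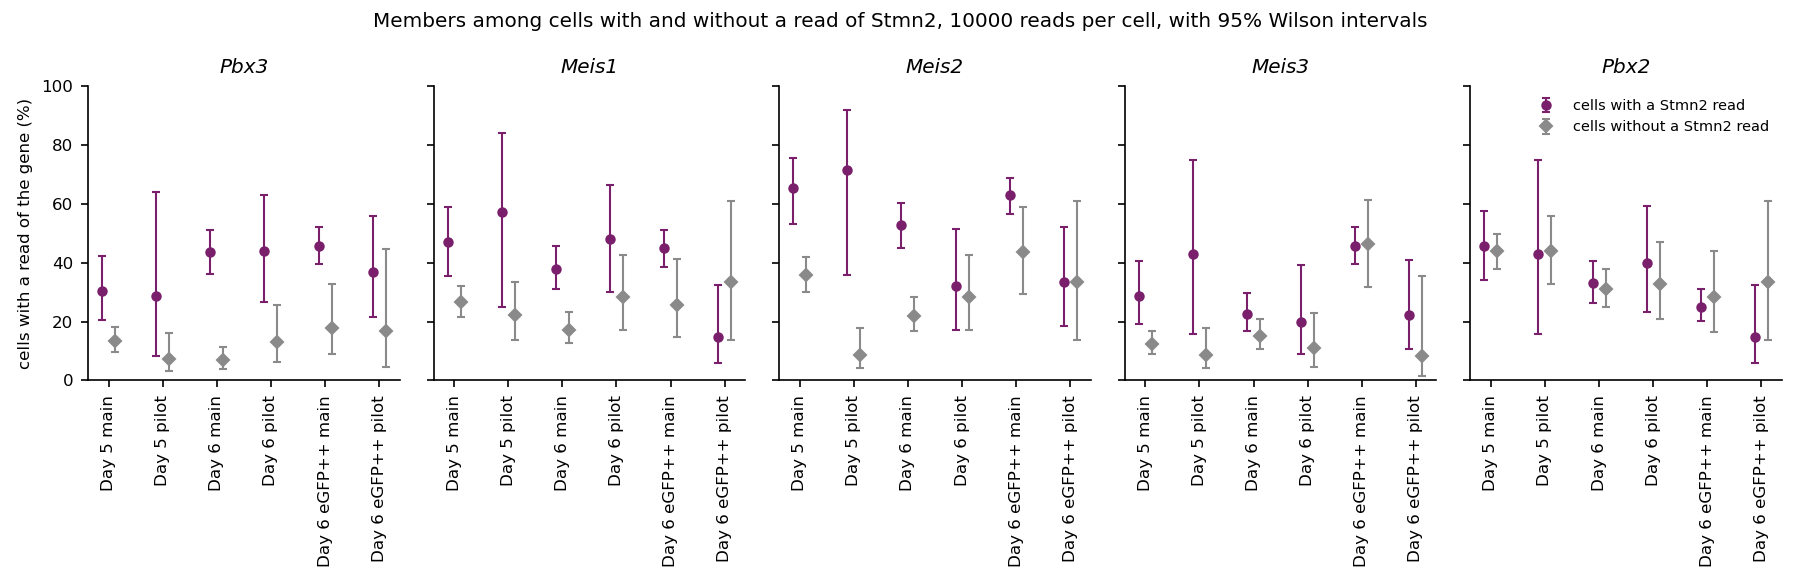
Percentage of cells with a read of Pbx3, Meis1, Meis2, Meis3 or Pbx2 (y axis) among cells with (circles) and without (diamonds) a read of Stmn2, in each group and experiment of Days 5 and 6 (x axis), at 10000 reads per cell; bars are 95% Wilson intervals. For Pbx3 the circle lies above the diamond in 6 of 6 sums, and for Pbx2 in 3 of 6.

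The eGFP++ cells were compared with the other Day 6 cells to see which members go with the reporter. None of the 8 members passed edgeR's quasi-likelihood test, which called 0.0311% of all genes (5 genes, all lower in the eGFP++ cells); DESeq2 called 3.26% of genes and 0 members. The fitted log2 changes of all genes had a median of −0.52 in this comparison and −0.40 with the size factors of DESeq2's kind in edgeR, and the members' changes are to be read against that. At an unadjusted p under 0.05, where edgeR gave 1011 genes, there was 1 member, Meis2, with a fitted change of 2.26 ± 0.83 (SE, edgeR adjusted p = 0.743). Meis2 was at 274.2 CPM in the main and 799 CPM in the pilot eGFP++ cells, against 176.7 and 107.1 CPM in the other Day 6 cells. The pilot value came from 39 cells of 1 plate, of which 1 cell held 31.9% of the Meis2 reads and 3 cells 57.7%. Without the pilot eGFP++ sum the change was 0.23, and without the main one 3.20 with an edgeR adjusted p of 0.03, out of a range of 0.03 to 1 over the alternatives. Without the main eGFP++ sum 4.39% of all genes were called, so that calls rose across the whole table in that setting. By share of cells Meis2 was at 60.3% (54.5 to 65.8) against 36.2% (main) and at 33.3% (20.6 to 49) against 29.6% (pilot).

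Meis1 was at 183.7 and 161.3 CPM in the eGFP++ cells against 109.9 and 98.1 CPM, 1.67-fold and 1.64-fold higher in the 2 experiments. Its shares went in opposite directions, 42.2% against 26.8% among main and 20.5% against 35.2% among pilot cells, where 1 cell held 26.8% of its reads. Meis3 was at 119.1 and 45.8 CPM against 45.6 and 30.3 CPM, with shares of 45.7% (40 to 51.6) against 18.6% among main and 17.9% (8.98 to 32.7) against 14.1% among pilot cells. Pbx3 was at 219.3 and 443.4 CPM against 123.4 and 96.7 CPM, with shares of 41.8% (36.2 to 47.7) and 30.8% (18.6 to 46.4) against 23.7% and 23.9%. In the pilot eGFP++ plate 1 of the 39 cells held 21.8% of the Pbx3 reads and 3 cells 55.3%. Pbx2 was the reverse in CPM, at 88.7 and 48.4 CPM in the eGFP++ cells against 120.3 and 131.6 CPM. Its shares were 25.5% (20.8 to 30.9) and 20.5% (10.8 to 35.5) against 31.9% and 35.2%. Over all reads they were 44.9% against 48.6% among main cells but 64.1% against 57.7% among pilot cells. Pbx4 was at 12.7 and 0.183 CPM, the second from 3 reads, against 20.4 and 7.22 CPM. Pknox1 was at 12.3 and 29.7 CPM against 13.2 and 25.5 CPM, and Pknox2 at 8.3 and 35.9 CPM against 14.8 and 12.5 CPM, so neither moved one way in both experiments. The marker lists moved with this comparison: 3 dividing-cell markers summed to 111.9 and 65.5 CPM in the eGFP++ cells against 638.5 and 1233 CPM, 5 neuronal markers to 7838 and 8049 CPM against 3245 and 2422 CPM, and 5 ventral interneuron markers to 2.47 and 0.183 CPM against 64.4 and 8.44 CPM. The part of cell makeup in the members' values was not tested.

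In the plate labelled eGFP+, 83 cells with no replicate, Meis1 was at 24.5 CPM, Meis2 at 77.2, Meis3 at 58.1, Pbx2 at 83.9, Pbx3 at 66.8, Pbx4 at 8.01, Pknox1 at 17.7 and Pknox2 at 5.42 CPM. Of the 8 members 6 were below the other main Day 6 cells, and Meis3 and Pknox1 were above them. The share of all genes below was not computed, so the count is not a trait of the members. For Meis3 and Pknox1, 1 cell held 35.4% and 45.6% of the reads. For the members below, 1 cell held from 15.3% (Pbx3) to 72.2% (Pbx4) of the reads. Cells of this plate had a median of 1524 genes, against 2310.5 in the other main Day 6 cells, and spike-in reads of 19% against 15.6%; the part of that in these values was not tested. Shares of cells were 12% (6.68 to 20.8) for Meis1, 21.7% (14.2 to 31.7) for Meis2, 13.3% (7.56 to 22.2) for Meis3 and 13.3% (7.56 to 22.2) for Pbx3.

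The genes around these partners were counted from lists of their classes. From Day 2 to Day 6, edgeR called 5 of 8 tested Hox genes of groups 1 to 3, 7 of 15 of groups 4 to 8 and 0 of 10 of groups 9 to 13, all of them higher on Day 6. Hoxb5 was at 2.02 (main) and 1.41 (pilot) CPM on Day 2 and at 503.2 and 403.7 CPM on Day 6. Hoxa2, a gene of the hindbrain, was at 0 and 0.019 CPM and then at 47.9 and 32.1 CPM. Of 14 genes of the retinoic acid response, 5 rose, among them Crabp2, which binds retinoic acid in the cell and was at 320.8 and 214.9 CPM on Day 6 after 9.24 and 5.5 CPM on Day 2. The median fitted log2 change was 8.48, 10.15, 1.60 and 4.92 in these 4 lists, 3.22 over the 8 members and 0.17 over all genes tested.

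Other TALE homeobox genes were counted in the same way. Of the 9 tested genes of the Tgif, Irx and Mkx kind 0 passed from Day 2 to Day 6 by edgeR, with 1 higher and 1 lower at an unadjusted p under 0.05. Their median fitted log2 change was 2.94, close to the members' 3.22, and the difference between the lists was not tested. Tgif1, a repressor, was at 109.6 and 84.8 CPM on Day 2 and at 14.9 and 9.79 CPM on Day 6 (edgeR adjusted p = 0.17), and Irx5 was at 7.14 and 0 CPM on Day 2 and at 19.8 and 23.7 CPM on Day 6. Of 11 tested genes whose proteins are known to bind Pbx or Meis proteins 0 passed, with 2 higher and 1 lower at an unadjusted p under 0.05. Pax6 was at 6.54 and 0.019 CPM on Day 2 and at 72.8 and 50.6 CPM on Day 6, and Neurog2, a proneural factor, at 0.0807 and 0.019 CPM and then at 129.2 and 156.8 CPM. At Day 3, when Meis2 had risen, the called genes of these lists included Hoxb5 (213.3 and 122.9 CPM), Crabp2 (247.5 and 128.6 CPM) and Cyp26a1 (310.5 and 227.5 CPM), the last an enzyme that degrades retinoic acid. In the trend of the share of cells, 1 of 8, 1 of 15 and 0 of 10 Hox genes of the 3 sets of groups rose, 2 of 14 of the retinoic acid response, 0 of 9 of the other TALE genes and 0 of 11 of the binding proteins.

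The members' courses were set beside each other and beside other genes by Pearson's r of log2(CPM + 1) over the 13 sums, each experiment centred on its own mean; the sums share experiments and depth, and r is given as a description. Among the members r was highest between Meis1 and Meis2 at 0.855, followed by Meis1 and Pknox2 at 0.837, Meis2 and Pknox2 at 0.834 and Meis3 and Pbx3 at 0.810. Pbx2 and Pbx3 had an r of 0.078, and Pbx2 and Pknox1 the lowest at −0.310. A level of at least 5 CPM in a group of both experiments was reached by 11076 tested genes, a count that includes the 8 members, which were not ranked. Of the other genes, those nearest to Meis1 were Shd (0.972), Tshz1 (0.960) and Zadh2 (0.959). Nrcam and Nt5m (0.968 each) were among the 3 nearest to Meis2. Nearest to Meis3 were Nhlh2 (0.980), Onecut2 (0.977) and Hoxa7 (0.975), and nearest to Pbx3 were Rab3a (0.976), Ddah2 (0.972) and Ret (0.959). Pbx2 was nearest to Zfp703 (0.934), Taf10 (0.926) and Emilin2 (0.919), Pbx4 to Fam210b (0.905), Apbb3 (0.897) and Fkbpl (0.897), Pknox1 to Cry2 (0.900), Rcbtb1 (0.872) and Rpap2 (0.871), and Pknox2 to 9030624G23Rik (0.947), B230219D22Rik (0.946) and Pex2 (0.944).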

How the data were processed

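The data are the deposited tables of read counts per gene and cell, 1 for each of 35 plates (24 main, 11 pilot). The authors' counts are not normalised; TopHat2 2.1.1, HTSeq 0.6.1 and mm10 are named in the submitters' processing notes, and their parts in the processing are not stated further in the sources used here. Each table has 24092 entries: 23968 genes, 92 spike-in entries (6.16% of reads), 5 summary entries that name no gene (34.9% of reads) and 27 left out because their names are not written alike in every table. A further table of 40 columns matched no sample and was not used. The tables have no header, so a column was given the day and experiment of its plate. The counts hold no molecular identifiers. Among kept cells, 0 held identical counts.

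Cells with at least 500 genes were kept, and reads were summed per group and experiment. For the 12 sums other than the plate labelled eGFP+, a model was fitted with edgeR 4.0.16 under R 4.3.3 (filterByExpr, TMM, quasi-likelihood, group plus experiment as a block, 5 residual degrees of freedom, common dispersion 1.12, prior count 0.125), and SE is the log2 change divided by the square root of F. The experiment pairs the groups because the labels name it; the log2 differences of main and pilot in 1 group correlated with those of another at 0.0326 to 0.143 over 15 pairs of groups. Tests are two-sided, adjusted over all genes in each of 6 comparisons, with a threshold of 0.05. Shares use cells thinned at random to 10000 reads (2048 main, 385 pilot cells). Alternatives were other size factors, DESeq2 1.42.0, filters, thinning, cells with a read, left-out sums and plates with many wells under 500 genes.

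All 8 members were named, with full values for those with at least 5 CPM in a group of both experiments (all 8) and a fitted change where the unadjusted p was under 0.05; of each list up to 2 genes of smallest p were named. Members and lists were chosen with earlier results of these data known. Some genes that this rule would name are not reported here.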

Additional observations from a re-analysis of the deposited data

Results flagged for a closer look

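Plates of a group were compared for each member where an experiment had 4 or 5 plates, and in 2 of 32 such sets of plates 1 plate stood apart from the rest by Dixon's test; chance gives such a plate in about 1 of 20 sets. For Meis3, the lowest of 4 plates of main Day 5 was at 20.2 CPM and the nearest other plate at 31.9 CPM. For Pbx4, the highest of 4 plates of main Day 5 was at 19.2 CPM and the nearest other plate at 7.5 CPM. The labels tie no plate to a culture of its own, so plates were not counted as replicates.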

How the results depend on the processing

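Each count of members called was recomputed under every alternative, and 61 of 78 gave the same count. Where a member was called, the same count came from 8 of 12 alternatives (Day 2 to Day 3), 8 of 12 (Day 2 to Day 6) and 0 of 6 (trend). In the other comparisons, where 0 members were called, 11 or 12 of 12 gave 0 again. The same count need not be the same member: from Day 2 to Day 3 without the pilot Day 3 sum, Meis1 took the place of Meis2. Of the values of single members 82.1% kept their direction and side of the threshold and 1 turned direction, Meis1 from Day 2 to Day 3, at −0.81 without the main and 9.27 without the pilot Day 3 sum. DESeq2 called 3 members from Day 2 to Day 3 and 4 from Day 2 to Day 6. Counting cells with a read called 4 from Day 2 to Day 3, 1 from Day 4 to Day 5 (Meis3) and 7 from Day 2 to Day 6, where it called 4.21%, 2.45% and 30.8% of all genes. Without the replicate block of the experiment 2 members (Meis1 and Meis2) were called from Day 2 to Day 6, and its removal changed no other count of members called. Leaving out 1 sum in turn gave 0 to 1 members called from Day 2 to Day 3, 0 to 1 from Day 3 to Day 4 (Meis1, without main Day 3), 0 to 1 from Day 2 to Day 6 and 0 to 1 in the eGFP++ comparison (Meis2, without main eGFP++). The trend of the share of cells called 1 member (Meis1) at 5000 reads or at least 1000 genes per cell, 0 at 2000 reads or unthinned, and 0 within either experiment alone, where the smallest exact permutation p is 0.0167; in these settings the exact permutation test gave 15.6%, 15.8%, 11.1% (main) and 6.19% (pilot) of genes an unadjusted p under 0.05. Of all genes, the trend called 1.67% at 5000 reads and 1.72% at a minimum of 1000 genes per cell. The cause of the differences between settings was not tested, except that 1 experiment allows only 120 arrangements. DESeq2 called 1.07% of the whole table's genes from Day 2 to Day 3 and 12.7% from Day 2 to Day 6, against edgeR's 0.0498% and 0.833%, and without the Day 4 plates with over 25% of wells under 500 genes (1 in each experiment) edgeR called 0.506% from Day 2 to Day 6.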
